A study of Drosophila melanogaster with 24 samples.

Results

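Lsp2, a gene for a larval serum protein, and srp, which encodes the GATA factor serpent, were followed through adult whole females of 24 Drosophila melanogaster lines. The rule named 5 genes, Lsp2, Lsp1alpha, Lsp1beta, Lsp1gamma and srp, and took every probe set whose platform annotation names 1 of them alone. It found 2 of them, each with 1 probe set, among 10844 genes that a probe set names: Lsp2 and srp. No probe set carried the name of Lsp1alpha, Lsp1beta or Lsp1gamma, so these 3 genes were not analysed here. Lsp2 and srp were chosen by their low level in heat selected lines, so their difference between heat selected and other lines is given below as a description, without a test. Both passed the filter on low values, a log2 value above 4 on at least 3 of the 24 arrays, as did 9023 of 13966 probe sets.

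The arrays covered 8 groups of 3 replicate lines, 1 Affymetrix array per line: heat selected, constant 30, cold selected, longevity selected, knock-down selected, starvation selected, desiccation selected and control lines. The labels name the constant 30 flies as held at 30 degrees. The other selected groups are named for the resistance, or the longevity, under selection. RNA came from 10 females per vial, and 5 micrograms of it were labelled after oligo-dT priming. The sources used here give neither the strain, the females' age, how long selection ran nor which knock-down was selected for. Each line is named a biological replicate, so every p-value below measures the spread between such lines. The median log2 value of an array was 5.46 to 5.57, and from 8544 to 9071 probe sets exceeded 4. The number of arrays, 3 per group, limits the precision.

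The yolk protein genes Yp1, Yp2 and Yp3, markers of adult females, never fell below 13.38 on any array. The male genes SP, Acp36DE, Mst87F and dj were above 4 on none. Acp26Aa, a further male gene, stayed between 3.90 and 4.42.

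Larval serum proteins are hexamerins, large blood proteins of insects that belong to the same superfamily as hemocyanins and phenoloxidases. The fat body of the late larva makes them in great amounts, and they serve as a store of amino acids for building the adult during metamorphosis. The fat body is the fly's counterpart of liver and adipose tissue, and larval fat body cells survive for some days in the young adult. Serpent is a zinc finger transcription factor that binds GATA sites and is needed to form the fat body and the blood cells of the embryo. Whole females hold all tissues, so fewer cells of a type and less RNA per cell cannot be told apart in any value that follows.

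Lsp2, which encodes larval serum protein 2, had log2 GCRMA values, a background-corrected and normalized array signal, of 6.37, 4.57 and 5.70 in heat selected lines, against 9.89, 10.52 and 8.38 in control lines. Every heat selected line thus lay below every control line. The means were 5.55 ± 0.91 in heat selected and 9.60 ± 1.10 in control lines (SD, n = 3 each), a difference of -4.05 ± 0.78 (SE), or a level 16.5-fold lower on the linear scale. The share of all tested probe sets whose 3 heat selected lines lay below all 3 control lines was 11.4%, and nothing is read from it for Lsp2, since that contrast chose the gene.

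Among the other regimes, Lsp2 stood at 10.07, 6.68 and 8.07 in constant 30 lines and at 7.50, 8.78 and 7.48 in cold selected lines. It was at 9.56, 8.89 and 6.87 in longevity selected lines and at 7.48, 5.94 and 8.01 in knock-down selected lines. In starvation selected lines it was at 7.94, 7.58 and 8.31, and in desiccation selected lines at 8.16, 8.55 and 8.32. Lines of the constant 30, cold selected, longevity selected and desiccation selected groups thus reached the control range, while knock-down selected replicate 2, the lowest line outside heat selected, lay inside the heat selected range.

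Ordered by their means, the groups ran from heat selected over knock-down selected (7.14), cold selected (7.92), starvation selected (7.95), constant 30 (8.28), desiccation selected (8.34) and longevity selected (8.44) to control. Each of the 7 neighbouring pairs in that order overlapped in range. The whole span of Lsp2, from 4.57 to 10.52, is a 61.8-fold range between single lines, and 11 tested probe sets had a wider one. Its low end is a heat selected line, whose low level chose the gene, so nothing is read from that rank. Outside heat selected lines Lsp2 ran from 5.94 to 10.52.

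**Figure D1:**
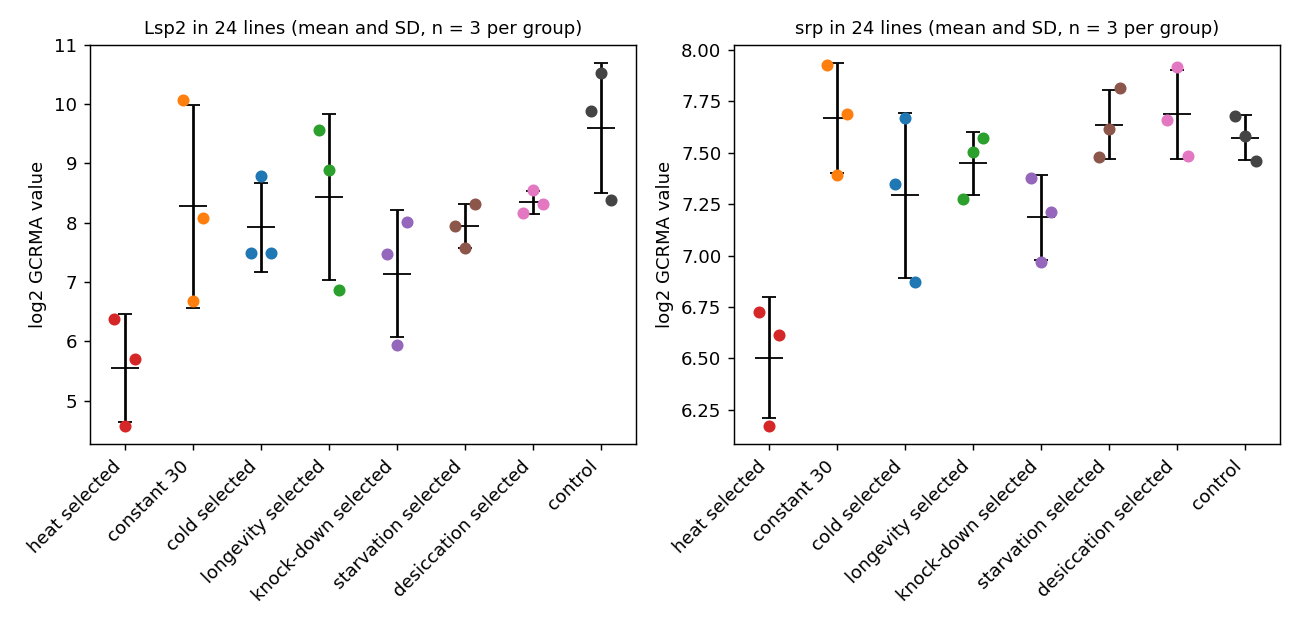
Log2 GCRMA values of Lsp2 (left) and srp (right) in each of 24 lines, by group. Coloured points are single lines, and black bars give the group mean and SD (n = 3). Both genes are lowest in heat selected lines, with 1 knock-down selected line at 5.94 among them for Lsp2 and none for srp.

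The level of srp was 6.72, 6.17 and 6.61 in heat selected lines, against 7.68, 7.58 and 7.46 in control lines. The 3 heat selected lines were also below all 21 other arrays, whose lowest was 6.87. The group means were 6.50 ± 0.29 in heat selected and 7.57 ± 0.11 in control lines (SD, n = 3 each), a difference of -1.07 ± 0.18 (SE), or a level 2.10-fold lower on the linear scale. Of all tested probe sets, 37 had every heat selected line below the other 21 arrays, a share of 0.41%. Nothing is read from it for srp, since the low level in heat selected lines chose the gene.

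In the remaining regimes srp was at 7.93, 7.39 and 7.69 in constant 30 lines and at 7.35, 7.67 and 6.87 in cold selected lines. It was at 7.27, 7.50 and 7.57 in longevity selected lines and at 7.38, 6.97 and 7.21 in knock-down selected lines. In starvation selected lines it was at 7.48, 7.61 and 7.81, and in desiccation selected lines at 7.66, 7.92 and 7.49. These 18 arrays stayed between 6.87 and 7.93, a span in which the control lines lie too.

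The order of the srp means differed from that of Lsp2 above the lowest 3 places. Heat selected, knock-down selected (7.19) and cold selected (7.29) were lowest for both genes, followed for srp by longevity selected (7.45), control, starvation selected (7.64), constant 30 (7.67) and desiccation selected (7.69). Of the 7 neighbouring pairs, only heat selected and knock-down selected did not overlap. Control was thus the highest group for Lsp2 and in the middle of the order for srp.

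Heat selected lines also differed from control in other measures, whose part in the low Lsp2 and srp levels was not tested. On fly control probe sets, 3′ signal exceeded 5′ signal by 1.62, 1.34 and 1.68 (log2) on heat selected arrays and by 1.74, 1.69 and 1.82 on control arrays, a larger excess meaning that less signal comes from the 5′ end. With it as a covariate, the differences were -3.90 for Lsp2 and -0.96 for srp. Of 12 tested eggshell genes of the ovarian follicle, Femcoat, Cp19 and Cp16 fell in heat selected lines and none rose, and of 7 tested muscle genes, Tm2, up, sls and Mlc1 rose and none fell, while limma called 2.84% of all probe sets there. All 7 calls were lost without control replicate 1 or 2, without heat selected replicate 1 or 2, with the 3′ excess as a covariate and with the 6 arrays alone (limma adjusted p = 0.0745 to 0.274), and none changed direction. The mean log2 level of the 12 eggshell genes was 10.73, 11.14 and 11.86 in heat selected lines and 12.22, 12.07 and 11.88 in control lines. For the 7 muscle genes the mean was 10.28, 10.16 and 9.47 in heat selected lines and 8.67, 8.92 and 9.37 in control lines. Muscle genes were above control outside heat selected lines too. In the mean of the 6 other regimes their median change was 0.41, with 0 of 7 below 0, against 0.91 in heat selected lines. For eggshell genes these medians were -0.15, with 8 of 12 below 0, and -0.66. No gene of either list was called in that mean, nor was any other tested probe set.

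Of the comparisons that did not choose the genes, none called Lsp2 or srp. A probe set was called at a limma p adjusted by Benjamini and Hochberg under 0.05 over the 9023 tested. The 6 comparisons of a regime with control share the same 3 control arrays, which the choice of the genes also used, so they are not independent of each other or of that choice. Intervals below are 95% intervals of the fit, not adjusted for the number of comparisons.

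The mean of Lsp2 was below control in each of the 6 regimes. The largest difference was in knock-down selected lines, with 7.14 ± 1.08 against 9.60 ± 1.10 in control lines (SD, n = 3 each), a difference of -2.45 ± 0.78 (SE, interval -4.07 to -0.84). Its adjusted p was 0.214 by limma (0.00495 unadjusted), and the share of probe sets called there was 0.155%. The Lsp2 values of knock-down selected and of starvation selected lines did not overlap those of control lines, which held downward for 9.48% and 11.8% of all tested probe sets. For cold selected lines the difference was -1.68 (interval -3.30 to -0.06, limma adjusted p = 0.628), and for starvation selected lines -1.65 (interval -3.27 to -0.03, adjusted p = 0.536). Constant 30, desiccation selected and longevity selected lines were at -1.32, -1.25 and -1.16, with limma adjusted p-values of 0.731, 0.741 and 0.746. These differences moved by over 1.5 times with single lines left out. In constant 30 lines the difference was -0.52 without constant 30 replicate 2 and -2.22 without constant 30 replicate 1. In longevity selected lines it was -0.37 without longevity selected replicate 3 and -1.77 without control replicate 3. Without control replicate 2, constant 30, desiccation selected and longevity selected lines were at -0.86, -0.79 and -0.70. The share called over all probe sets was 0.0776% in desiccation selected lines and 0% in cold selected, starvation selected, constant 30 and longevity selected lines, where 713, 831, 630 and 717 probe sets had an unadjusted limma p under 0.05.

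The mean of the 6 regimes put Lsp2 at 8.01, against 9.60 in control lines, a difference of -1.59 ± 0.59 (SE, interval -2.82 to -0.35). Its limma p was 0.0146 unadjusted and 0.313 adjusted. In this comparison 0% of probe sets were called, and 1003 had an unadjusted p under 0.05. Of the 18 lines of these regimes, 13 had less Lsp2 than every control line. That count rests on the control arrays that the choice of Lsp2 also used. It was not set against all tested probe sets, so nothing is read from it. The difference between the 6 regimes and heat selected lines was 2.46, given as a description.

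**Figure D2:**
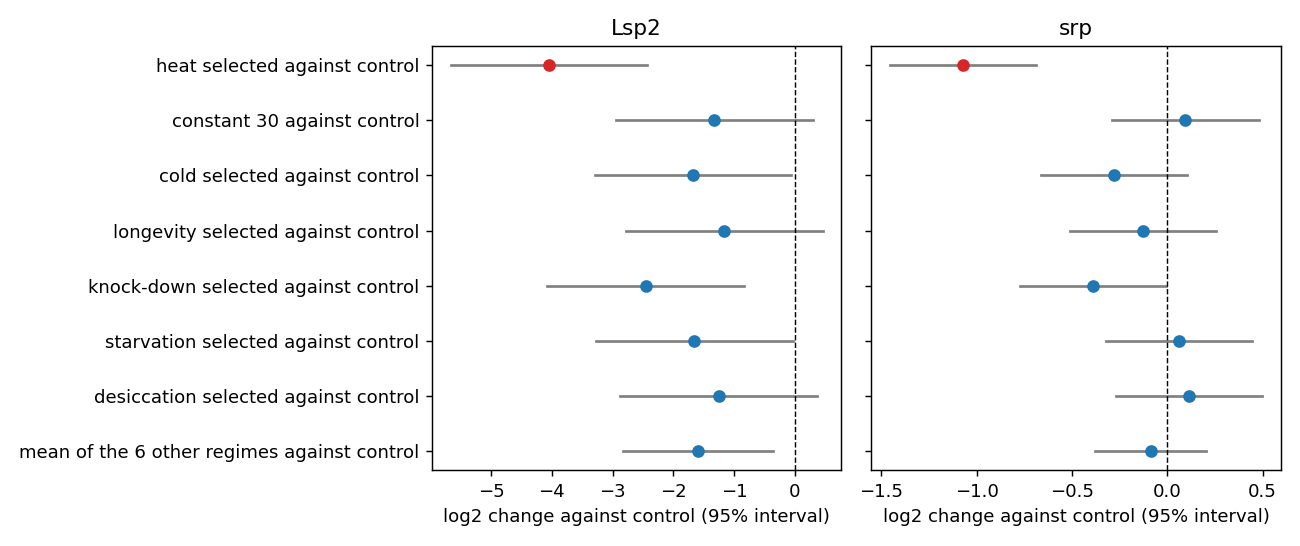
Log2 change against control (x axis) of Lsp2 (left) and srp (right) in 7 regimes and in the mean of the 6 regimes other than heat selected, from the limma fit; the panels have different x axes. Points are estimates and lines are 95% intervals not adjusted for the number of comparisons; heat selected (red) is a description. All 7 Lsp2 estimates lie below 0, while 3 of the 7 srp estimates lie above it.

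For srp the changes were smaller and of both signs. Knock-down selected lines averaged 7.19 ± 0.21, against 7.57 ± 0.11 in control lines (SD, n = 3 each), a difference of -0.39 ± 0.18 (SE, limma adjusted p = 0.475, 0.0476 unadjusted). These values did not overlap, a pattern shared by the 9.48% of probe sets given above. Cold selected and longevity selected lines were at -0.28 and -0.13, with limma adjusted p-values of 0.739 and 0.882. Constant 30, desiccation selected and starvation selected lines were at 0.10, 0.11 and 0.06, with limma adjusted p-values of 0.914, 0.900 and 0.936. The mean of the 6 regimes was 7.49, against 7.57 in control lines, a difference of -0.09 ± 0.14 (SE, limma adjusted p = 0.839). The interval of that difference was -0.38 to 0.21.

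Whether the 6 other regimes differed among themselves was asked with an F test that uses neither the heat selected nor the control mean. Lsp2 had F = 0.75 with an adjusted limma p of 0.999 (0.594 unadjusted). For srp F was 2.66 with an adjusted limma p of 0.999 (0.054 unadjusted). The test called 0.0111% of the probe sets, 1 of 9023, and 426 had an unadjusted p under 0.05. Differences between these regimes in Lsp2 or srp were therefore not detectable with 3 lines per group.

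Lsp2 varied strongly between lines of the same group. Its residual SD was 1.05 on the log2 scale, against a median of 0.12 over all tested probe sets, and 18 of the 9023 had a larger one. The spread was uneven, with an SD of 1.70 in constant 30 lines and 1.40 in longevity selected lines, against 0.37 in starvation selected and 0.20 in desiccation selected lines. The residual SD of srp was 0.24, exceeded by 755 probe sets.

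Lines with more Lsp2 than their group mean tended to have more srp as well. Group means, by which the genes were chosen, do not enter such deviations. Over the 24 lines the deviations correlated with Pearson's r = 0.54 (exact permutation within groups, two-sided p = 0.018) and Spearman's rho = 0.54 (exact permutation p = 0.0199), and 20 of 24 lines deviated with the same sign in both genes. This was the 1 pair of genes tested, so no adjustment applies. The value was 0.42 without constant 30 replicates 1 and 2, the 2 lines whose Lsp2 deviation from the group mean, 1.80 and -1.59, lay farthest from the median deviation. In the 18 lines outside heat selected and control the correlation was 0.47 (exact permutation p = 0.0899), and without heat selected replicate 2 it was 0.485 (exact permutation p = 0.0521). Of all tested probe sets, 1.94% had a larger deviation correlation with Lsp2 than srp had.

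Other measures moved with these deviations as well. The deviations of Lsp2 and srp correlated at -0.60 and -0.43 with those of the muscle score, at 0.26 and 0.42 with those of the eggshell score, and at 0.07 and 0.24 with those of the 3′ excess over the 24 arrays. These values are descriptions, and the part of these measures in the correlation of Lsp2 with srp was not tested.

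**Figure D3:**
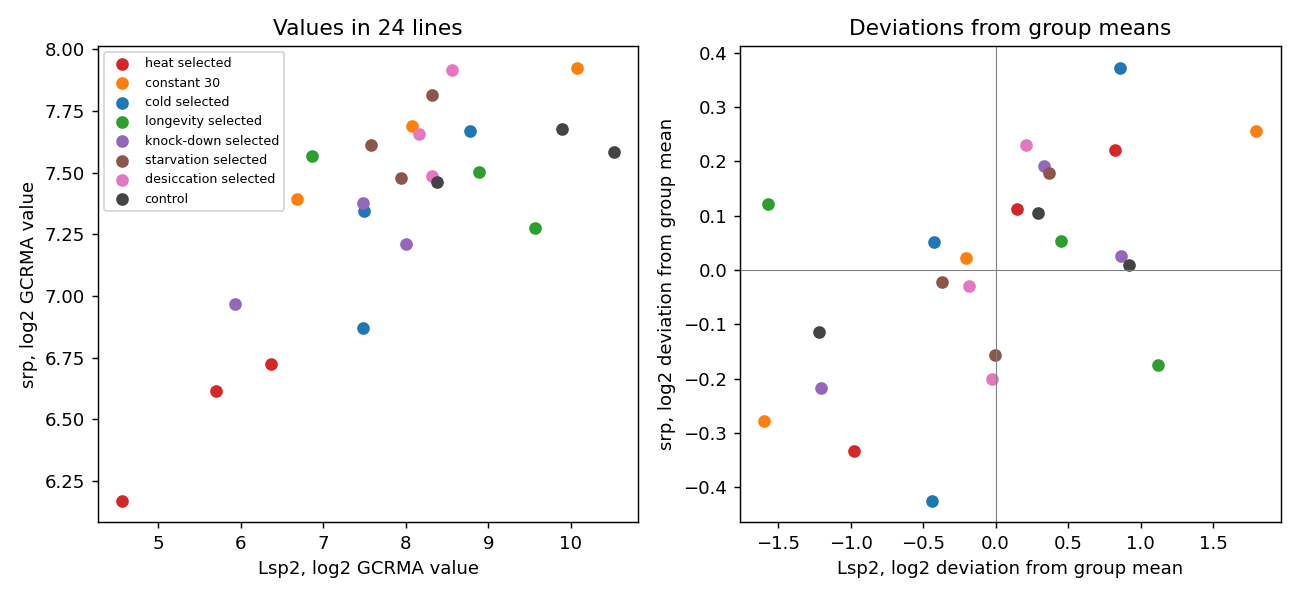
Levels of srp (y axis) against Lsp2 (x axis) in 24 lines, as log2 GCRMA values (left) and as log2 deviations from the group mean (right); each point is a line, coloured by group. Heat selected lines stand at the lower left in the left panel. In the right panel 20 of 24 lines lie at the lower left or upper right of the zero lines.

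Genes related to Lsp2 by family or function were not called in any comparison. The 4 listed relatives were Fbp1, which encodes the receptor that takes hexamerins back into the fat body, and PPO1, PPO2 and PPO3, prophenoloxidases of the melanin reaction. All 4 have a probe set and 3 were tested. PPO3 never exceeded 2.29 on the log2 scale and was not tested. Fbp1 averaged 3.93 in heat selected and 3.86 in control lines, and PPO1 and PPO2 differed by 0.10 and 0.08 between them (limma adjusted p = 0.815, 0.773 and 0.897 for Fbp1, PPO1 and PPO2). The interval of the Fbp1 change was -0.21 to 0.34. The 3 tested genes had a median change of 0.08, against 0.01 over all tested probe sets, of which 2.84% were called in that comparison. Fbp1 and PPO1 were above 4 on 7 and 4 of the 24 arrays, so both were near the filter value.

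Other larval genes were near or below the filter value. The list held 12 genes of salivary glue, larval cuticle and larval fat body, of which 8 have a probe set and 1, Fbp1, was tested. The glue genes Sgs1, Sgs3, Sgs4, Sgs5, Sgs7 and Sgs8 and the larval fat body gene Fbp2 were above 4 on none of the 24 arrays. Lsp2 was above 4 on all of them.

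Of the relatives of serpent none was called. Nothing is read from that, since the share called over all tested probe sets was 2.84% in heat selected lines and at most 0.155% elsewhere. Of 5 listed genes, the GATA factors pnr, grn and GATAe were above 4 on no array and were not tested. GATAd, a further GATA factor, was at -0.01 ± 0.07 and ush, the cofactor that binds GATA factors, at -0.03 ± 0.13 in heat selected against control lines (SE, limma adjusted p = 0.935 and 0.924). Neither was called in another regime, in the mean of 6 or in the F test. Of 4 genes with a described GATA input in the fat body, Fbp1, Adh, CecA1 and DptA, only Fbp1 could be followed here.

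Blood cells are among the tissues that serpent is needed for. Of 11 listed markers 10 have a probe set and 9 were tested, none of them called in any comparison. With 2.84% of all tested probe sets called in heat selected lines and at most 0.155% elsewhere, nothing is read from that. The list includes the collagen genes Col4a1 and vkg, which fat body makes too. The median change of the 9 genes in heat selected lines was 0.34, against 0.01 over all tested probe sets, with 2 of 9 below 0. In the mean of the 6 other regimes it was 0.11, against -0.02 over all tested probe sets, with 1 of 9 below 0. In heat selected lines Ppn, Hml and Pxn, which encode papilin, hemolectin and peroxidasin, were at 0.58, 0.57 and 0.37 (limma adjusted p = 0.108, 0.307 and 0.116). Col4a1 and vkg were at 0.35 and 0.34 there (limma adjusted p = 0.157 and 0.309). NimC1 and Sr-CI hardly differed, at 0.06 and 0.08 (limma adjusted p = 0.861 for each). The 2 genes below 0 in heat selected lines were Nplp2 at -0.26 (limma adjusted p = 0.190) and crq at -0.05 (adjusted p = 0.908). The mean log2 level of the 9 genes was 7.16 to 7.22 in heat selected and 6.87 to 7.04 in control lines.

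**Figure D4:**
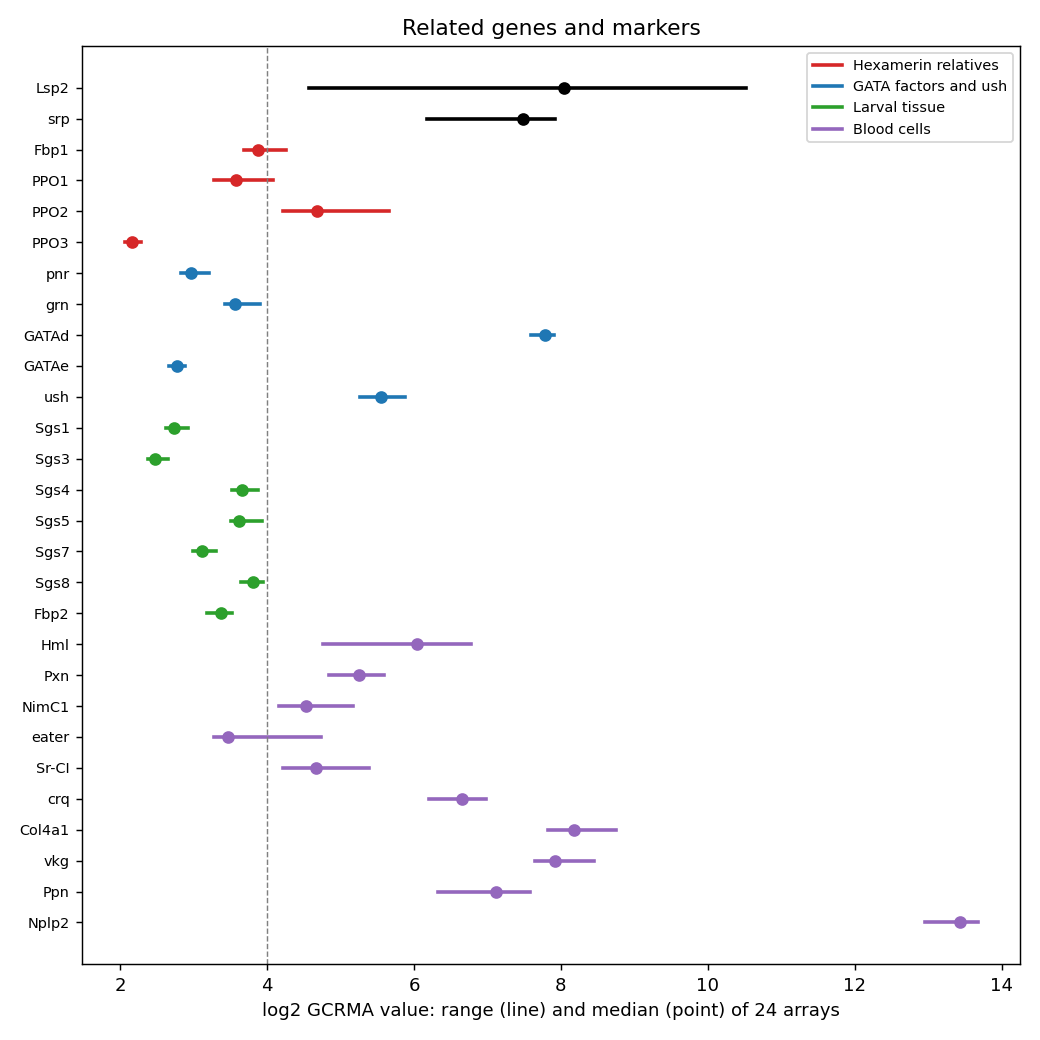
Range (line) and median (point) of the log2 GCRMA value over 24 arrays for Lsp2, srp, relatives of either and markers of larval tissue and blood cells; the dashed line marks the filter value of 4. Levels of different probe sets are not comparable with each other. The glue genes, Fbp2, PPO3, pnr, grn and GATAe lie below the line on every array, and Lsp2 has the widest range shown.

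Among 19 genes of fat body lipid metabolism, transport and secretion, 17 have a probe set and 16 were tested. Their median change in heat selected lines was -0.08, against 0.01 over all tested probe sets, with 12 of 16 below 0. Of all probe sets 2.84% were called there, and of the 16 genes 1 was, too few to read a share from. The gene called was bmm. It encodes brummer, the lipase that releases stored fat, and it fell by 0.31 ± 0.08 (SE, limma adjusted p = 0.0481), with 7.90 ± 0.09 in heat selected and 8.21 ± 0.11 in control lines (SD, n = 3 each). The bmm call was lost in 9 of 15 alternatives, among them without heat selected replicate 1, 2 or 3 and without control replicate 1 or 2 (limma adjusted p = 0.0614 to 0.203), and its direction was kept in all 15. Next by p was apolpp, which was not called but fell further than bmm, by 0.46 ± 0.13 (SE, limma adjusted p = 0.0577). Lpin had the largest rise of the list, at 0.27 (limma adjusted p = 0.144). Yp1, Yp2 and Yp3, yolk proteins made by the female fat body and ovary, were at -0.06, -0.30 and -0.36 and were not called. No gene of this list was called in the 6 other regimes, in their mean or in the F test, where at most 0.155% of all tested probe sets were. The iron carrier gene Tsf1 came nearest, at -1.14 in knock-down selected lines (limma adjusted p = 0.179).

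Of 11 genes of the ecdysone response, the hormone system that times hexamerin synthesis and uptake in the larva, 9 have a probe set and 6 were tested. None was called in any comparison. Over all tested probe sets the share called was 2.84% in heat selected lines and at most 0.155% elsewhere, so nothing is read from that. The median change of the 6 genes was 0.08 in heat selected lines. Blimp-1, which encodes a transcriptional repressor induced by ecdysone, was at 0.34 ± 0.11 and had the smallest p of the list there (SE, limma adjusted p = 0.0866). The nuclear receptor gene ftz-f1 was at -0.32 ± 0.11 there (SE, limma adjusted p = 0.104) and EcR, the ecdysone receptor, at 0.09 (adjusted p = 0.598).

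The genes most like each member were taken by Pearson's r over the 24 arrays among tested probe sets that name 1 gene, as a description. For Lsp2 these were bmm (0.85), pn (0.78), lili (0.78), Dap160 (0.78) and CG1103 (0.78). Among all tested probe sets, whether or not they name 1 gene, likeness to Lsp2 over the 24 arrays placed srp 15th (r = 0.76). Over the 18 arrays without heat selected and control lines it placed srp 181st (r = 0.53). The 24 arrays include the heat selected lines whose low level chose both genes, so likeness over them is not independent of that choice. In those 18 arrays bmm came (0.75) behind Obp99a (0.76) and sstn (0.75) and before CG31886 (0.75) and sws (0.75).

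The bmm level was 7.81 to 7.99 in heat selected lines, 8.02 to 8.35 with a median of 8.11 in the 18 lines of the other regimes, and 8.13 to 8.33 in control lines. Its 3 heat selected lines were therefore, like those of srp and lili, below all 21 other arrays, over a much narrower span than Lsp2. Of all tested probe sets 37, or 0.41%, had that pattern. Nothing is read from it for bmm or lili, since likeness to Lsp2 over arrays that include heat selected lines picked both. The arrays are shared by Lsp2 and bmm, so their RNA quality and tissue makeup are shared as well.

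For srp the most alike over 24 arrays were mtd (0.87), puc (0.85), Gug (0.84), ClC-c (0.83) and ssx (0.83). Over the 18 arrays they were Gnmt (0.84), puc (0.81), Dyrk2 (0.76), CG4972 (0.75) and Cyp6a8 (0.75). The gene puc, which encodes puckered, a phosphatase that restrains JNK signalling, was the 1 gene in both lists. Its level was 7.86 to 8.20 in heat selected lines, 8.12 to 8.62 with a median of 8.44 in the 18 lines of the other regimes, and 8.26 to 8.33 in control lines.

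**Figure D5:**
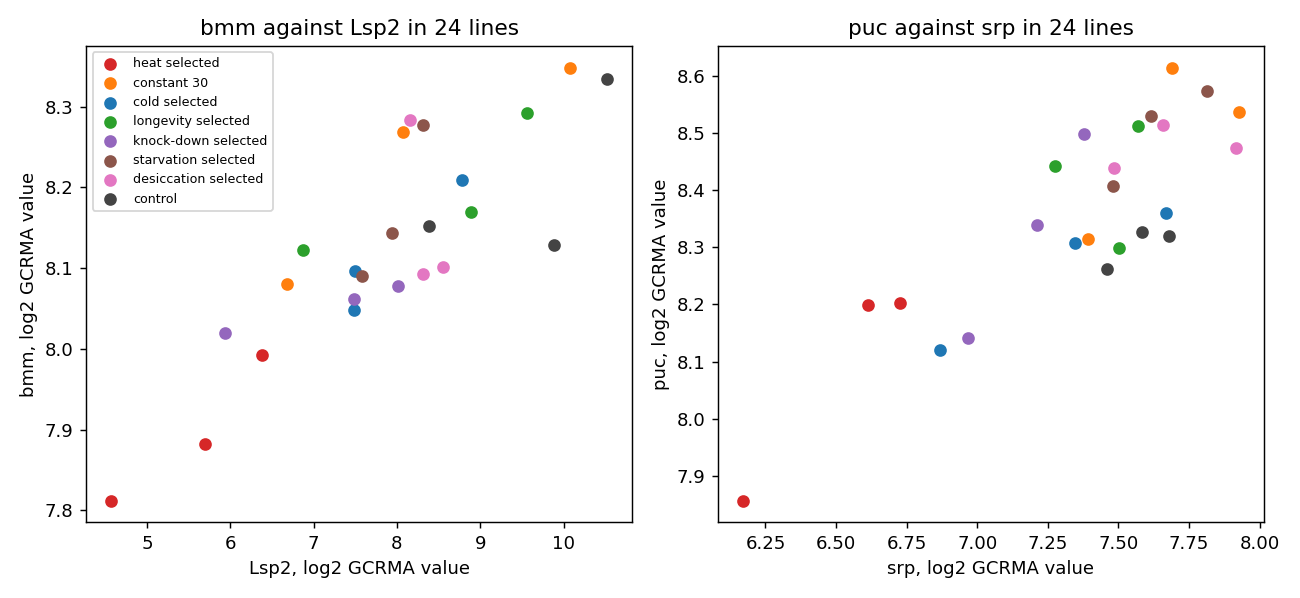
Log2 GCRMA values of bmm against Lsp2 (left) and of puc against srp (right) in 24 lines; each point is a line, coloured by group. The pairs correlate at 0.85 each over arrays that include the heat selected lines, whose low level chose Lsp2 and srp. Heat selected lines hold the lowest bmm values of the 24.

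The genes next to Lsp2 and srp on the chromosome were looked at in the order of the Release 6 gene table. Lsp2 lies on chromosome arm 3L and srp on 3R. Of the 2 protein-coding genes on each side of Lsp2, DEF8 and CG5645 were tested and were at -0.02 and -0.33 in heat selected against control lines (limma adjusted p = 0.906 and 0.196). On one side of srp lie mor, which encodes a chromatin remodelling subunit, and Hel89B, at 0.00 and -0.18 (adjusted p = 0.995 and 0.331). On its other side lie GATAe and pnr, above 4 on no array. None of the 4 tested neighbours was called, against 2.84% of all tested probe sets, so nothing is read from that.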

How the data were processed

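Values were deposited by the authors as log2 GCRMA signals, per the submitters' processing notes; no version or settings are stated, nor whether the arrays were run as 1 set. The log2 scale was read from the values (-0.18 to 14.95, none missing), and no normalization was added. After 44 array controls were left out, 12443 of 13966 probe sets named 1 gene, 327 several and 1196 none, with symbols updated through the Release 6 gene table.

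All 24 arrays entered 1 limma 3.58.1 fit (R 4.3.3; a mean per group, 16 residual plus 3.56 prior degrees of freedom), and two-sided p-values were adjusted over the tested probe sets of each comparison. The code was tested on simulated data. For listed genes with more than 1 tested probe set, that of highest mean was used.

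Members, lists and tests were chosen with earlier results of these data known. Named genes are the members, listed genes that were called or account for a list, and the 5 most alike to each member. Tsf1, apolpp, Lpin, Blimp-1, ftz-f1 and EcR were singled out after their values were seen. Of the blood cell genes all 9 tested are given with values. Correlations between 5 members had been planned, of which 1 pair could be measured.

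Alternatives were another filter or none, quantile normalization, median centring, array weights, a trended robust prior, an RNA quality covariate, a replicate block, the compared arrays alone and leaving out each array.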

Additional observations from a re-analysis of the deposited data

How the results depend on the processing

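In the comparisons that did not choose the genes, neither Lsp2 nor srp was called under any alternative run. The smallest adjusted limma p-values were 0.0568 and 0.355, both in knock-down selected lines. All Lsp2 changes kept their direction, but with single lines left out they ran from -2.22 to -0.52 in constant 30, -2.28 to -1.21 in cold selected, -1.77 to -0.37 in longevity selected, -3.06 to -1.85 in knock-down selected, -2.26 to -1.19 in starvation selected and -1.86 to -0.79 in desiccation selected lines. With single lines left out, the srp change ran from -0.033 to 0.234 in constant 30, from -0.027 to 0.139 in starvation selected and from -0.0027 to 0.213 in desiccation selected lines. Its sign turned without constant 30 replicate 1, starvation selected replicate 3 or desiccation selected replicate 2. Heat selected minus control ran from -4.66 to -3.56 for Lsp2 and from -1.18 to -0.90 for srp, and the 6 regimes minus control from -2.19 to -1.12 for Lsp2. The correlation of Lsp2 and srp deviations was 0.47 (exact permutation p = 0.0899) without heat selected and control lines, a setting with fewer lines, and 0.46 to 0.70 with single lines left out.

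Same-numbered lines of different groups deviated with correlations of -0.351 to 0.558 (median 0.069), against -0.497 to 0.438 (median -0.024) for lines of different number, so the numbers were not taken as pairs. A replicate block cannot move a difference between group means here, since every group holds the same 3 numbers, so heat selected minus control stayed at -4.05 and -1.07 for Lsp2 and srp by construction. The block did change the errors, and with it neither gene was called in the comparisons that did not choose them. The permutation test of the Lsp2 and srp deviations was not repeated with the block, so a part of the line numbers in that correlation was not tested.

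Counts over all probe sets were less stable, so the background shares hold for the settings of the report only. The 256 calls in heat selected lines became 144 with no filter, 1 with the RNA covariate, 410 with the replicate block, 0 with the compared arrays alone and 0 to 591 with single lines left out. The 14 in knock-down selected lines became 54 with array weights, 26 with the block and 0 to 237 with single lines left out, and the 7 in desiccation selected lines became 26 with array weights and 4 to 42 with single lines left out. Comparisons with 0 calls had 35 to 212 without control replicate 3. With array weights there were 177 in starvation selected lines and 73 in the mean of 6 regimes.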
